A study of Mus musculus with 12 samples.

Results

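The comparison described here was made between the small RNA libraries of the mouse thymus at 3 months (3M) and at 2 weeks (2W), the widest span of age in the series. It rested on 4 of the 12 libraries, 2 biological replicates at each age, and 2 further libraries at 6 weeks (6W) were used only to follow each microRNA (miRNA) between these ages. All mice were wild type C57BL/6, with no treatment named in the labels, and the study's methods give them as males. The whole organ was sequenced, so thymocytes, stroma and the tissue around the lobes were measured together. The table listed 2006 small RNAs, of which 976 carried a mouse miRNA name, 140 were predicted miRNAs and 890 had names without the mouse prefix, such as miR-29-y. After a filter on low counts, 810 were tested, 538 of them with a mouse name. The libraries held 10350021 and 10127968 miRNA counts at 2W, 10274060 and 9181478 at 6W, and 10994118 and 9193963 at 3M. Spearman's rho across the tested miRNAs was 0.974 between the 2W libraries, 0.976 between the 3M libraries and 0.923 to 0.932 between libraries of different ages. In the long RNA libraries of the same ages the thymocyte genes Cd4, Cd8a and Rag1 were abundant, with Rag1 between 7581 and 11211 counts per 1000000 counted reads (CPM).

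A miRNA is a short RNA that guides the silencing complex to messenger RNAs, mainly through its seed, the bases from position 2 to 8, so miRNAs that share a seed form a family. Many miRNAs are cut from shared long transcripts and therefore lie in genomic clusters, and each hairpin can give a mature miRNA from its 5′ arm (-5p) and its 3′ arm (-3p). In the thymus, miR-181a is known to be abundant in immature thymocytes, miR-205 is an epithelial miRNA, and miR-29a is known to protect thymic epithelium from loss during stress. Several clusters, among them that of the Dlk1-Dio3 region, lie in imprinted regions that are active in fetal and early postnatal tissues.

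The following sequences are those of the miRNAs with the smallest p-values in each direction and of relatives that share a locus or a seed with them. They are written 5′ to 3′ in DNA letters as deposited, are identical to RefSeq (GRCm38.p6), and have the seed in capitals. First come those that were lower at 3M, from imprinted loci and, for miR-206-3p alone, from the muscle list.
mmu-miR-335-5p: tCAAGAGCaataacgaaaaatgt
mmu-miR-296-3p: gAGGGTTGggtggaggctctcc
mmu-miR-298-5p: gGCAGAGGagggctgttcttccc
mmu-miR-127-3p: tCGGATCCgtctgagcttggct
mmu-miR-434-3p: tTTGAACCatcactcgactcct
mmu-miR-381-3p: tATACAAGggcaagctctctgt
mmu-miR-300-3p: tATGCAAGggcaagctctcttc
mmu-miR-206-3p: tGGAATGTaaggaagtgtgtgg
No seed is shared among these 8, although miR-381-3p and miR-300-3p of the same cluster are alike over most of their length. Their hairpins lie at chr6:30741299-30741396 within Mest (miR-335), chr2:174267047-174267125 and chr2:174267504-174267585 (miR-296 and miR-298), chr12:109592846-109592915 and chr12:109594506-109594599 within the span of Rtl1 (miR-127 and miR-434), and chr12:109726822-109726896 and chr12:109724313-109724391 (miR-381 and miR-300). The miR-206 hairpin lies at chr1:20679010-20679082 within the long non-coding RNA gene Lincmd1. The miR-296 and miR-298 hairpins are on the minus strand and the others on the plus strand.

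The next sequences are those of miRNAs that were higher at 3M.
mmu-miR-205-5p: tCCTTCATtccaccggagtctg
mmu-miR-204-5p: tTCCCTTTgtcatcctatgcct
mmu-miR-29a-3p: tAGCACCAtctgaaatcggtta
mmu-miR-29b-3p: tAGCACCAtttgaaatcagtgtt
mmu-miR-29c-3p: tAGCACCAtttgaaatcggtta
mmu-miR-99a-5p: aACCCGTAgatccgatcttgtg
mmu-miR-100-5p: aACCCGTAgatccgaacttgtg
Here the miR-29 miRNAs share the seed AGCACCA, and miR-99a and miR-100 share ACCCGTA. The hairpins of miR-205 (chr1:193507463-193507530, minus strand, in Mir205hg) and miR-204 (chr19:22750605-22750672, plus strand, in Trpm3) lie in long host genes. That of miR-29a is at chr6:31062660-31062747, next to miR-29b-1 at chr6:31063023-31063093, and that of miR-29c is at chr1:195037547-195037634, next to miR-29b-2 at chr1:195037040-195037120. The miR-99a hairpin is at chr16:77598936-77599000, and that of miR-100 is at chr9:41531425-41531504 in Mir100hg.

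Of the 810 miRNAs tested, 181 (22.3%) differed between 3M and 2W at an adjusted p under 0.05 (edgeR's quasi-likelihood test with Benjamini-Hochberg adjustment), the threshold at which a miRNA is said below to have risen, fallen or been called. By direction, 80 (9.88%) were higher at 3M and 101 (12.5%) were lower. At the study's own threshold, an unadjusted p under 0.05 with a log2 fold change beyond 1, 207 (25.6%) differed, 84 higher (10.4%) and 123 lower (15.2%). In 531 miRNAs (65.6%) the 2 libraries of one age did not overlap those of the other, so a lack of overlap alone was common. The median log2 fold change over all tested miRNAs was -0.105. The number called depended on the 2W libraries: it was 37 without 2W replicate 1 and 58 without 2W replicate 2, against 151 and 195 without either 3M library. The count at the study's threshold stayed between 185 and 225 in these 4 fits.

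**Figure D1:**
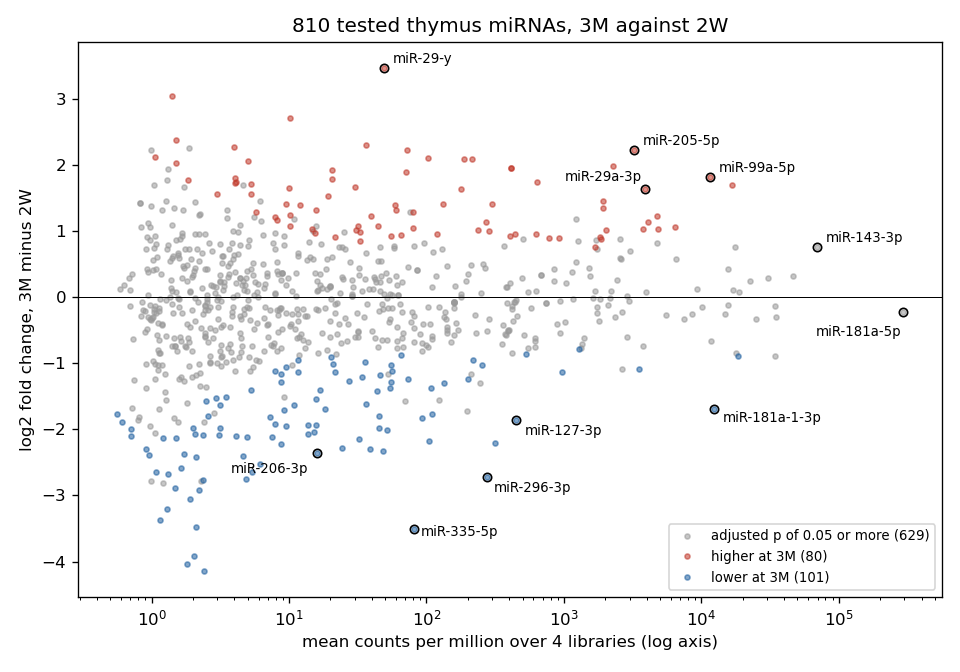
Mean CPM over the 4 libraries (x axis, log scale) against the log2 fold change, 3M minus 2W (y axis), for the 810 tested miRNAs. Red points are the 80 called higher at 3M, blue points the 101 called lower and grey points the rest; 6 miRNAs with 3 or fewer counts in each library of one age are drawn at their bound. The most abundant miRNA, miR-181a-5p, lies near 0, and the called miRNAs reach from rare to abundant species.

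None of the 8 most abundant miRNAs was called. MiR-181a-5p, the main thymocyte miRNA, took 30.3% and 33.0% of the counts at 2W and 25.7% and 27.8% at 3M. Its log2 fold change was -0.23 ± 0.21 (SE, n = 2 libraries per age), which did not pass the test (adjusted p = 0.45). MiR-143-3p, known from smooth muscle and mesenchyme, stood at 44610 and 59376 CPM at 2W and at 82126 and 93006 CPM at 3M, groups that did not overlap (log2 fold change 0.75, edgeR adjusted p = 0.058). For miR-30e-5p the values were 52915 and 36799 CPM against 20873 and 27546 CPM (log2 fold change -0.89, edgeR adjusted p = 0.054). MiR-26a-5p, miR-142a-5p, let-7f-5p, miR-27b-3p and miR-92a-3p had log2 fold changes between -0.34 and 0.32. The replicates of miR-142a-5p, a miRNA of blood cells, were far apart at 2W, at 54490 and 22408 CPM.

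The miRNAs of the Dlk1-Dio3 region of chromosome 12, a large imprinted cluster transcribed from the maternal chromosome, were lower at 3M. The table held 71 of them, and their counts summed to 16505 and 17521 at 2W and to 5900 and 3510 at 3M. Those that passed the filter numbered 43, and 36 of these were called, all lower, where 12.5% of all tested miRNAs were called lower. The filter itself could favour such members, since 19 of the 43 reached it only through the 2W libraries. Of the 24 that reached it at 3M alone, 23 were called lower. The log2 fold changes of the 43 ran from -4.04 to -0.62, with a median of -2.10 against -0.105 for all tested miRNAs. The 28 below the filter summed to 148 and 171 counts at 2W and to 71 and 33 at 3M. Without 2W replicate 1 the list had 15 calls and without 2W replicate 2 it had 13, against 33 and 29 without 3M replicate 1 and 2.

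MiR-127-3p was the most abundant of them, at 684 and 727 CPM at 2W and at 208 and 180 CPM at 3M. It fell by 1.86 ± 0.24 on the log2 scale (edgeR adjusted p = 0.0046), and neither replicate at 3M came near the 2W range. MiR-434-3p, from the same hairpin row antisense to Rtl1, was at 76.8 and 84.8 CPM at 2W and at 18.4 and 13.8 CPM at 3M (log2 fold change -2.33 ± 0.27, edgeR adjusted p = 0.0045). Farther along the chromosome, miR-381-3p was at 71.2 and 59.0 CPM and then at 15 and 11.3 CPM (log2 fold change -2.30 ± 0.27, edgeR adjusted p = 0.0045). MiR-541-5p and miR-411-5p fell by 1.38 and 1.82 on the log2 scale. Split by position, the row that holds Mir337 to Mir136 (14 hairpins, chr12:109563692-109595388) had 9 of 11 tested miRNAs called lower. The row that holds Mir379 to Mir410 (36 hairpins, chr12:109709060-109747960) had 23 of 28. Each interval spans all hairpins of its row, with or without a tested miRNA. The tested miRNAs of these rows had median log2 fold changes of -1.98 and -2.05. The members of a row share their transcripts and are not independent replicates.

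MiRNAs of other imprinted loci were also lower. MiR-335-5p, from an intron of the imprinted gene Mest, had the smallest p-value of all. It stood at 140 and 158 CPM at 2W and at 14.0 and 12.2 CPM at 3M, an 11.4-fold lower level (log2 fold change -3.51 ± 0.27, edgeR adjusted p = 0.0021). The other arm, miR-335-3p, fell by 1.69 on the log2 scale. MiR-296-3p and miR-298-5p are neighbours near the imprinted Gnas locus. MiR-296-3p was at 522 and 430 CPM at 2W and at 69.9 and 75.1 CPM at 3M (log2 fold change -2.71 ± 0.26, edgeR adjusted p = 0.0032). MiR-298-5p was at 567 and 471 CPM and then at 126 and 98.3 CPM (log2 fold change -2.21 ± 0.27, edgeR adjusted p = 0.0045). In the pair of hairpins of this locus all 4 tested miRNAs were called lower, although miR-298-3p, at 2 and 8 counts at 3M, passed the filter only through the 2W libraries. Of the list of other imprinted hosts, 6 of 7 tested members fell, where 12.5% of all tested miRNAs did, and the seventh, miR-344-3p, lay near the filter at 0.478 and 1.09 CPM at 2W and 1.73 and 0.877 CPM at 3M. Of the 5 that passed the filter by the 3M libraries alone, all 5 were called. The 6 calls are both arms of miR-335, miR-296 and miR-298, and arms of a hairpin are not independent replicates. The list had 5 or 6 calls when any 1 library was left out.

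Not every imprinted cluster moved. The Sfmbt2 cluster, a long tandem array on chromosome 2 of miR-466, miR-467 and miR-669 miRNAs that is also imprinted, had 50 tested members of 72 listed. None was called by edgeR or by DESeq2 and none had an unadjusted p under 0.05. Their median log2 fold change was 0.0344, and they ranged from -1.26 to 0.72. The most abundant, miR-467a-5p, was at 674 and 858 CPM at 2W and at 616 and 817 CPM at 3M, so its groups overlapped. Members of this array are near-copies of each other, and the way reads were shared between them could not be traced.

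The X-linked cluster of miR-322, miR-503, miR-351, miR-542 and miR-450, which is known for its part in growth and muscle differentiation, was lower as well. Of 12 tested members of 13 listed, 9 were called, all lower, where 12.5% of all tested miRNAs were, and the median log2 fold change was -1.29. Of the 11 that reached the filter at 3M alone, 8 were called. The members lie in a cluster, with both arms of several hairpins among them, and are not independent replicates. MiR-322-3p, the most abundant, was at 310 and 375 CPM at 2W and at 176 and 160 CPM at 3M (log2 fold change -1.03 ± 0.24, edgeR adjusted p = 0.029). MiR-450a-5p was at 183 and 199 CPM and then at 65.9 and 89.3 CPM. MiR-351-5p fell further, from 165 and 175 CPM to 52.0 and 47.3 CPM (log2 fold change -1.77 ± 0.24, edgeR adjusted p = 0.0057). Without 2W replicate 1 this list had 3 calls, and without 2W replicate 2 it had 4.

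**Figure D2:**
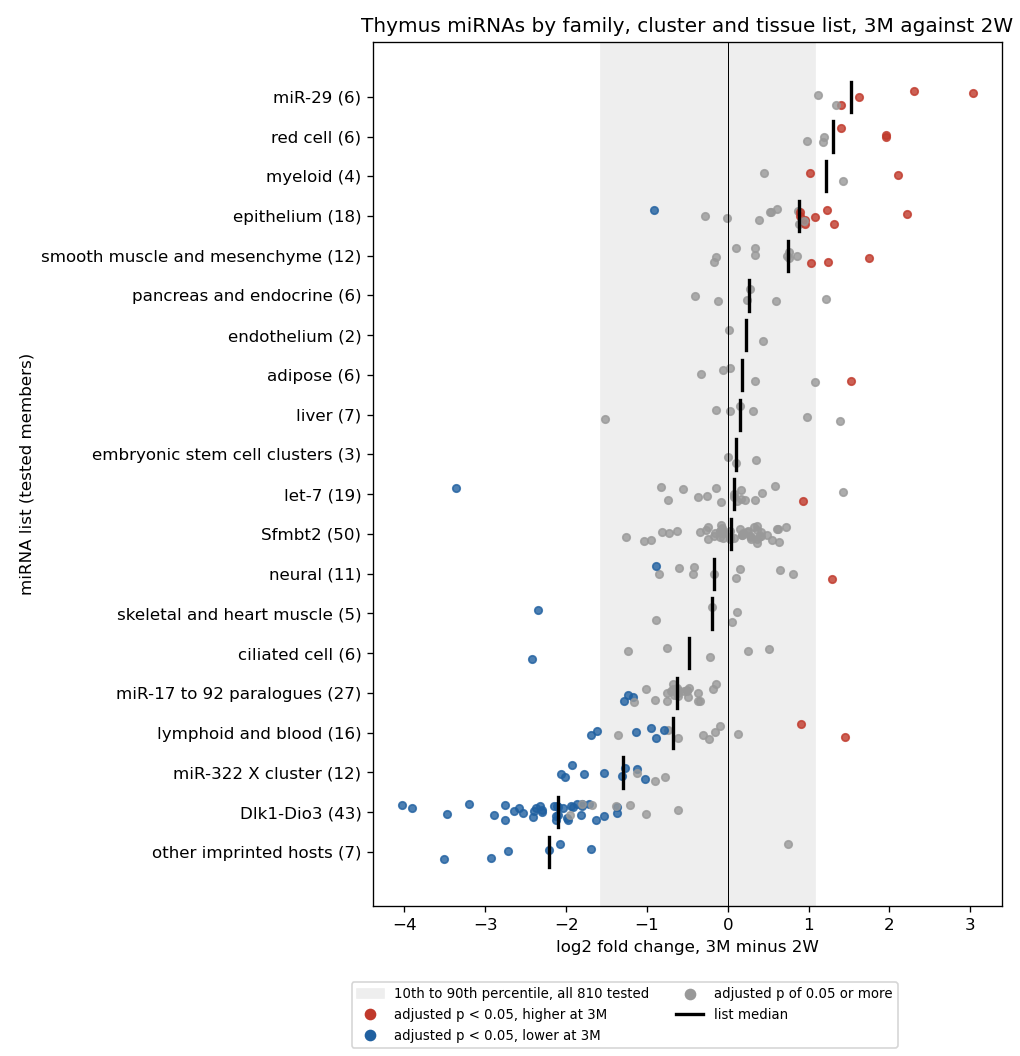
Log2 fold change, 3M minus 2W (x axis), of each tested miRNA in 20 lists of families, genomic clusters and tissues of origin (y axis, number tested in brackets). Red and blue points passed an adjusted p of 0.05, and black bars are list medians. The grey band spans the 10th to the 90th percentile of all 810 tested miRNAs. MiR-29 lies at the top (median 1.52) and the Dlk1-Dio3 and other imprinted hosts lists at the bottom (medians -2.10 and -2.21). The Sfmbt2 list has a median of 0.0344.

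Most tested members of the miR-29 family rose. They are best known as repressors of collagen and other matrix messages. MiR-29a-3p, which gave most of the family's counts, was at 2039 and 1747 CPM at 2W and at 6331 and 5388 CPM at 3M (log2 fold change 1.63 ± 0.24, edgeR adjusted p = 0.0064). MiR-29b-3p was at 90.2 and 55.1 CPM and then at 200 and 185 CPM (log2 fold change 1.40 ± 0.30, edgeR adjusted p = 0.020). MiR-29c-3p was at 14.7 and 9.80 CPM and then at 69.4 and 51.8 CPM (log2 fold change 2.30 ± 0.31, edgeR adjusted p = 0.0052). With miR-29a-5p, 4 of the 6 tested members were called higher, where 9.88% of all tested miRNAs were. Of these 6, 3 passed the filter by the 2W libraries alone, and all 3 were called; miR-29a-5p, with 4 and 2 counts in the 2W libraries against 19 and 30, passed only through the 3M libraries. The family had 3 calls without 2W replicate 1, 2 without 2W replicate 2 and 4 without either 3M library. The collagen gene Col1a1 fell by 1.22 on the log2 scale in the long RNA libraries (edgeR adjusted p = 0.019), from 87.6 and 87.7 CPM to 39.2 and 36.1 CPM. It was the only collagen gene looked up, and a part of miR-29 in its level was not tested.

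Epithelial miRNAs rose in 8 of 18 tested members of their list, 1 was called lower, and the median log2 fold change was 0.887. Over all tested miRNAs 9.88% were called higher and 12.5% lower. MiR-205-5p, a miRNA of stratified and thymic epithelium, was at 1208 and 1081 CPM at 2W and at 5677 and 4982 CPM at 3M, a 4.66-fold higher level (log2 fold change 2.22 ± 0.23, edgeR adjusted p = 0.0045). In the miR-200 family, which maintains the epithelial state, 5 of 8 tested miRNAs rose, each with a smaller fold. MiR-200a-3p was at 2967 and 2720 CPM and then at 5906 and 7393 CPM (log2 fold change 1.22 ± 0.23, edgeR adjusted p = 0.016). MiR-200b-3p, miR-200c-3p and miR-429-3p, which share a seed, rose by 0.90, 0.90 and 0.96 on the log2 scale. MiR-141-3p, at 2118 and 1497 CPM at 2W and at 3966 and 2664 CPM at 3M, did not pass (log2 fold change 0.88, edgeR adjusted p = 0.072), nor did miR-141-5p and miR-200a-5p. The row of Mir429, Mir200a and Mir200b on chromosome 4 had 4 of 5 tested miRNAs called higher. MiR-182-5p and miR-183-5p, of sensory and other epithelia, did not pass (log2 fold changes 0.53 and 0.38). The exception was miR-31-5p, which fell by 0.91 on the log2 scale. Its CPM on the scale of all 6 libraries was 8.89 and 9.20 at 6W, below both of the other ages. The epithelial genes gave no like pattern: the keratin Krt5 had a log2 fold change of 0.96 (edgeR adjusted p = 0.11), Epcam 0.25 (0.61), Krt8 -0.16 (0.74), Esrp1 0.20 (0.63) and Foxn1, the regulator of thymic epithelium, -0.82 (0.063), and none passed the test. In a whole organ, fewer cells of a type and less RNA per cell cannot be told apart. With either 2W library left out, 1 epithelial miRNA was called, miR-205-5p.

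MiR-204-5p, from an intron of the channel gene Trpm3, is not on these lists. It was at 41.9 and 35.1 CPM at 2W and at 144 and 188 CPM at 3M (log2 fold change 2.11 ± 0.27, edgeR adjusted p = 0.0046).

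Of the 5 tested muscle miRNAs 1 was called, a share near the 22.3% of all tested miRNAs called in either direction. MiR-206-3p, which is particular to skeletal muscle, was at 29.7 and 23.8 CPM at 2W and at 5.09 and 5.37 CPM at 3M (log2 fold change -2.35 ± 0.27, edgeR adjusted p = 0.0045), and it was called in every fit that left out 1 library. The other muscle miRNAs tested did not pass: miR-1a-3p was at 44.6 and 61.5 CPM against 45.5 and 64.3 CPM, and miR-133a-3p at 15.9 and 15.3 CPM against 16.9 and 16.8 CPM. MiR-133b-3p, whose hairpin is the neighbour of that of miR-206, was lower in both 3M libraries, at 5.93 and 2.48 CPM against 2.45 and 2.08 CPM, and did not pass either (log2 fold change -0.88, edgeR adjusted p = 0.24). MiR-499-5p had a log2 fold change of -0.20. The muscle genes were near the filter or without a call, with Acta1 at 1.05 and 0.43 CPM at 2W and at 0 and 0.135 CPM at 3M, and Ttn at a log2 fold change of -0.05.

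Mesenchymal and smooth muscle miRNAs were called higher in 3 of 12 tested members, where 9.88% of all tested miRNAs were. MiR-10b-5p was at 1900 and 3031 CPM at 2W and at 5766 and 4331 CPM at 3M (log2 fold change 1.03 ± 0.30, edgeR adjusted p = 0.046). Its other arm, miR-10b-3p, was called too (log2 fold change 1.24), and arms of a hairpin are not independent replicates. MiR-145a-3p was at 297 and 287 CPM and then at 1153 and 805 CPM (log2 fold change 1.75 ± 0.27, edgeR adjusted p = 0.0093). In contrast, miR-145a-5p, from the other arm, was not called (log2 fold change 0.86, edgeR adjusted p = 0.12). Among the genes, the fibroblast receptor Pdgfra and the smooth muscle actin Acta2 rose by 1.38 and 1.17 on the log2 scale, at 7.06 and 9.65 CPM against 24.0 and 19.6 CPM for Pdgfra and 10.5 and 7.93 CPM against 19.4 and 22.2 CPM for Acta2. Their edgeR adjusted p-values were 0.032 and 0.039, where 4.62% of 14341 genes were called. Of the other markers in this gene list, the collagen gene Col1a1 fell, as given above, and the pericyte receptor Pdgfrb had a log2 fold change of 0.07 (edgeR adjusted p = 0.89). The miRNA list had no call without 2W replicate 1, 2 without 2W replicate 2, 1 without 3M replicate 1 and 5 without 3M replicate 2.

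Of 16 tested members of the lymphoid list, 2 were called higher, a share near the 9.88% of all tested miRNAs, and 6 lower, where 12.5% of all were. The 6 are of the miR-181 family. MiR-181b-5p, which like miR-181a carries the seed of a family that tunes T cell receptor signalling, was at 22041 and 25839 CPM at 2W and at 13122 and 12666 CPM at 3M (log2 fold change -0.89 ± 0.22, edgeR adjusted p = 0.030). The passenger strand miR-181a-1-3p was at 20856 and 17117 CPM and then at 4093 and 7702 CPM (log2 fold change -1.69 ± 0.33, edgeR adjusted p = 0.016), whereas miR-181a-5p of the same hairpin had a log2 fold change of -0.23 as given above. That mature sequence also comes from the hairpin Mir181a-2, whose own passenger strand miR-181a-2-3p fell from 272 and 298 CPM to 139 and 157 CPM. MiR-146a-5p, a brake on NF-kB signalling, was at 865 and 1174 CPM at 2W and at 3255 and 2339 CPM at 3M (log2 fold change 1.46 ± 0.28, edgeR adjusted p = 0.016). MiR-150-5p, of mature lymphocytes, was at 1381 and 1165 CPM and then at 2724 and 2061 CPM (log2 fold change 0.91 ± 0.25, edgeR adjusted p = 0.041). MiR-155-5p, of activated lymphocytes, overlapped between the ages. The thymocyte genes Cd4, Cd8a, Rag1 and Ptcra had log2 fold changes of -0.52, -0.51, -0.43 and -0.85, with edgeR adjusted p-values from 0.064 to 0.12, and Cd3e one of -0.21 (0.52). Of the 16 members, 0 were called without 2W replicate 1, 2 without 2W replicate 2, 3 without 3M replicate 1 and 5 without 3M replicate 2.

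The miR-17 to miR-92 clusters and their paralogues are known for driving proliferation of lymphoid progenitors. All 27 members had negative fold changes, where 443 of all 810 tested miRNAs did. They share transcripts and in part sequences, so they are not independent replicates. Of the 27, 3 were called lower, against 12.5% of all tested miRNAs. With all 6 libraries in the fit 7 of them were called, and with edgeR's exact test 5. The median log2 fold change was -0.625. The largest called member, miR-18b-5p, was at 249 and 312 CPM at 2W and at 123 and 116 CPM at 3M (log2 fold change -1.23 ± 0.25, edgeR adjusted p = 0.018). The best known member miR-17-5p had a log2 fold change of -0.62 and did not pass (edgeR adjusted p = 0.14), and the abundant miR-92a-3p likewise did not. Without 2W replicate 1 there were 0 calls, and without any 1 of the other libraries there were 2 or 3.

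Of the myeloid list 2 of 4 tested miRNAs were called higher at 3M, and of the red cell list 3 of 6, where 9.88% of all tested miRNAs were called higher. Of the 4 myeloid miRNAs 2 passed the filter by the 2W libraries alone, with 1 call, and the other call, miR-223-5p, passed only through the 3M libraries. No member of either list was called once 2W replicate 1 or 2W replicate 2 was left out. MiR-223-3p, of granulocytes and macrophages, was at 19.8 and 20.5 CPM at 2W and at 43.0 and 38.5 CPM at 3M (log2 fold change 1.02 ± 0.23, edgeR adjusted p = 0.026). The macrophage genes Lyz2, Csf1r and Mrc1 rose by 1.35, 1.10 and 0.76 on the log2 scale, with edgeR adjusted p-values of 0.020, 0.032 and 0.045. The granulocyte gene S100a8, the fourth gene of the myeloid list, was at 13.8 and 8.85 CPM at 2W and at 2.43 and 8.19 CPM at 3M and did not pass (log2 fold change -1.08, edgeR adjusted p = 0.32). The myeloid miRNA list had 1 call without either 3M library. Among the 3 red cell calls, miR-486a-5p and miR-486b-5p have the same sequence in the table, so the list had 2 calls when each sequence was counted once. They were at nearly the same level, 151 and 189 CPM at 2W and 427 and 889 CPM at 3M for miR-486a-5p (log2 fold change 1.96 ± 0.38, edgeR adjusted p = 0.016). MiR-451a, the main miRNA of red cells, was at 166 and 162 CPM and then at 259 and 609 CPM (log2 fold change 1.40 ± 0.40, edgeR adjusted p = 0.045). Both stood highest in 3M replicate 2. In the long RNA libraries the globin genes Hba-a1 and Hbb-bs were likewise highest in the library labelled 3M replicate 2, at 306 and 1183 CPM, against 57.9 to 129 CPM and 308 to 423 CPM in the other 3, and neither was called. The red cell genes Hbb-bt and Alas2 were highest there too and were not called (log2 fold changes 1.15 and 0.92). The part of the red cells in these miRNA results was not tested. The red cell list had 2 calls without 3M replicate 2 and 5 without 3M replicate 1.

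Lists of other organs had few calls. None of the 7 tested liver miRNAs was called by edgeR, while 2 had an unadjusted p under 0.05 and DESeq2 called 1. MiR-122-5p, particular to hepatocytes, was at 15.6 and 11.7 CPM at 2W and at 7 and 2.41 CPM at 3M (log2 fold change -1.51, edgeR adjusted p = 0.058). The liver gene Alb varied within an age, at 149 and 134 CPM at 2W and at 179 and 2.03 CPM at 3M. Of the 6 tested pancreas and endocrine miRNAs edgeR and DESeq2 called 0, and 1 had an unadjusted p under 0.05. Both tested endothelial miRNAs and the 3 tested miRNAs of embryonic stem cell clusters had 0 calls by either tool and 0 unadjusted p-values under 0.05. In the ciliated cell list 1 of 6 was called, miR-449a-3p, at 4.11 and 2.97 CPM at 2W and at 0.545 and 0.768 CPM at 3M, and it passed the filter only through the 2W libraries. Of the 11 tested neural miRNAs 1 was called in each direction, miR-153-3p higher (log2 fold change 1.28) and miR-128-2-5p lower (-0.88). In the adipose list 1 of 6 was called. These shares were near or below the 22.3% of all tested miRNAs that were called in either direction, and none of the ciliated, neural and adipose calls was made once 2W replicate 1 or 2W replicate 2 was left out. The adipose member was miR-196a-5p, which rose by 1.53 on the log2 scale, at 11 and 8.91 CPM and then at 32.9 and 24.6 CPM. The fat cell genes Adipoq and Plin1 rose by 3.46 and 3.02 on the log2 scale (edgeR adjusted p = 0.021 for each), while Ucp1 and Ppargc1b did not pass (1.55 and 0.46). Adipoq was at 2.91 and 3.75 CPM at 2W and at 50.5 and 23.3 CPM at 3M. The part of these fat cells in the miRNA results was not tested.

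The let-7 family, which accumulates as tissues mature, had no common direction. Its summed level, on the scale of all 6 libraries, over the 9 tested miRNAs with the seed GAGGTAG was 107670 and 111719 CPM at 2W and 119277 and 107268 CPM at 3M, so the groups overlapped. Let-7e-5p alone of these 9 rose, a share near the 9.88% of all tested miRNAs called higher. It went from 270.0 and 290.0 CPM to 598 and 467 CPM (log2 fold change 0.93 ± 0.25, edgeR adjusted p = 0.038). Its hairpin lies in a row on chromosome 17 with that of miR-125a. The rare arm let-7g-3p was the 1 lower call among 19 tested let-7 members, where 12.5% of all tested miRNAs were called lower. It was at 2.78 and 1.49 CPM against 0.364 and 0 CPM, and passed the filter only through the 2W libraries. Neither let-7 call was made without 2W replicate 1 or without 2W replicate 2. The genes Lin28a and Lin28b, which block let-7 maturation, were under the filter in the long RNA libraries.

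Some seed families split by locus, and their sequences are shown to compare members that would share targets by seed but differ in response. In the seed CCCTGAG, miR-125b-5p and miR-125a-5p rose and miR-351-5p, of the X-linked cluster, fell.
mmu-miR-125b-5p: tCCCTGAGaccctaacttgtga
mmu-miR-125a-5p: tCCCTGAGaccctttaacctgtga
mmu-miR-351-5p: tCCCTGAGgagccctttgagcctg
MiR-125b-5p was at 8370 and 7442 CPM at 2W and at 30920 and 19987 CPM at 3M (log2 fold change 1.69 ± 0.28, edgeR adjusted p = 0.011). MiR-125a-5p was at 1052 and 781 CPM and then at 4832 and 2447 CPM (log2 fold change 1.99 ± 0.37, edgeR adjusted p = 0.014). The summed CPM of the 3, on the scale of all 6 libraries, was 9609 and 8313 at 2W and 35516 and 22383 at 3M, so the fall of miR-351-5p was small beside the rise of the others. In the seed AGCAGCA, miR-195a-5p and miR-497a-5p of a chromosome 11 pair rose, miR-322-5p fell, and miR-16-5p was not called.
mmu-miR-16-5p: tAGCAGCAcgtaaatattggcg
mmu-miR-195a-5p: tAGCAGCAcagaaatattggc
mmu-miR-497a-5p: cAGCAGCAcactgtggtttgta
mmu-miR-322-5p: cAGCAGCAattcatgttttgga
MiR-16-5p, the most abundant, was at 13722 and 18856 CPM at 2W and at 17073 and 12974 CPM at 3M, which overlapped (log2 fold change -0.12, edgeR adjusted p = 0.78). MiR-195a-5p was at 27.8 and 37.6 CPM and then at 109 and 61.5 CPM (log2 fold change 1.39 ± 0.34, edgeR adjusted p = 0.031). MiR-497a-5p rose by 1.02 and miR-322-5p fell by 1.12 on the log2 scale (edgeR adjusted p = 0.045 and 0.031). MiR-15a-5p and miR-15b-5p, of the same seed, were not called. In the seed ACCCGTA, miR-99a-5p was at 4529 and 5681 CPM at 2W and at 20687 and 15374 CPM at 3M (log2 fold change 1.82 ± 0.26, edgeR adjusted p = 0.0063). MiR-100-5p was at 3546 and 4722 CPM and then at 8490 and 8756 CPM (log2 fold change 1.06 ± 0.24, edgeR adjusted p = 0.025). MiR-99b-5p had a log2 fold change of 0.69 (edgeR adjusted p = 0.095).

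Both arms of a hairpin went the same way wherever both were called. Both arms were tested in 163 pairs. In 21 of these both arms were called, each with the same direction, and in 33 pairs 1 arm was called, the other arm having the opposite sign in 2.

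MiRNAs were said to change steadily where both 6W libraries lay between those of 2W and of 3M, without overlap, on the CPM scale of all 6 libraries. This held for 170 of the 810 (21.0%), 85 rising and 85 falling. Of the 181 called miRNAs 128 (70.7%) were steady, 65 higher and 63 lower. The calls rest on the same 2W and 3M libraries, so the libraries of these ages were already apart in most of them. The most clearly called of the rising ones were miR-29-y, miR-205-5p, miR-126-y and miR-204-5p, and of the falling ones miR-335-5p, miR-296-3p, miR-296-y and miR-434-3p.

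The share of the log2 change in mean CPM (with 0.25 added) that was reached by 6W had a median of 50.8% for the 80 miRNAs higher at 3M and of 67.6% for the 101 lower. At least 75% of the change came by 6W in 10 of the former and in 37 of the latter. At most 25% came by 6W in 10 and 6. The lower miRNAs include 36 of the Dlk1-Dio3 region, which share transcripts, and without them the median of the other 65 was 58.9%, with at least 75% of the change by 6W in 18. The Dlk1-Dio3 miRNAs fell early: a median of 76.2% of the change was reached by 6W in the 36 called, and of the 43 tested 18 were steady. MiR-335-5p had made 75.9% of its fall by 6W, at 24.1 and 22.9 CPM. MiR-296-3p and miR-298-5p had made 35.2% and 32.1% of theirs, so the larger part on the log2 scale came after 6W. Among the rising miRNAs, miR-205-5p had made 45.2% and miR-29a-3p 48.4% of the rise, at 2467 and 2098 CPM and at 3240 and 3271 CPM at 6W. MiR-451a had made 9.51% of it by 6W and miR-486a-5p 24.6%, so the larger part of the rise of both came after 6W. The 3M mean of each includes 3M replicate 2, which stood well above 3M replicate 1. No test of the difference between directions was made.

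**Figure D3:**
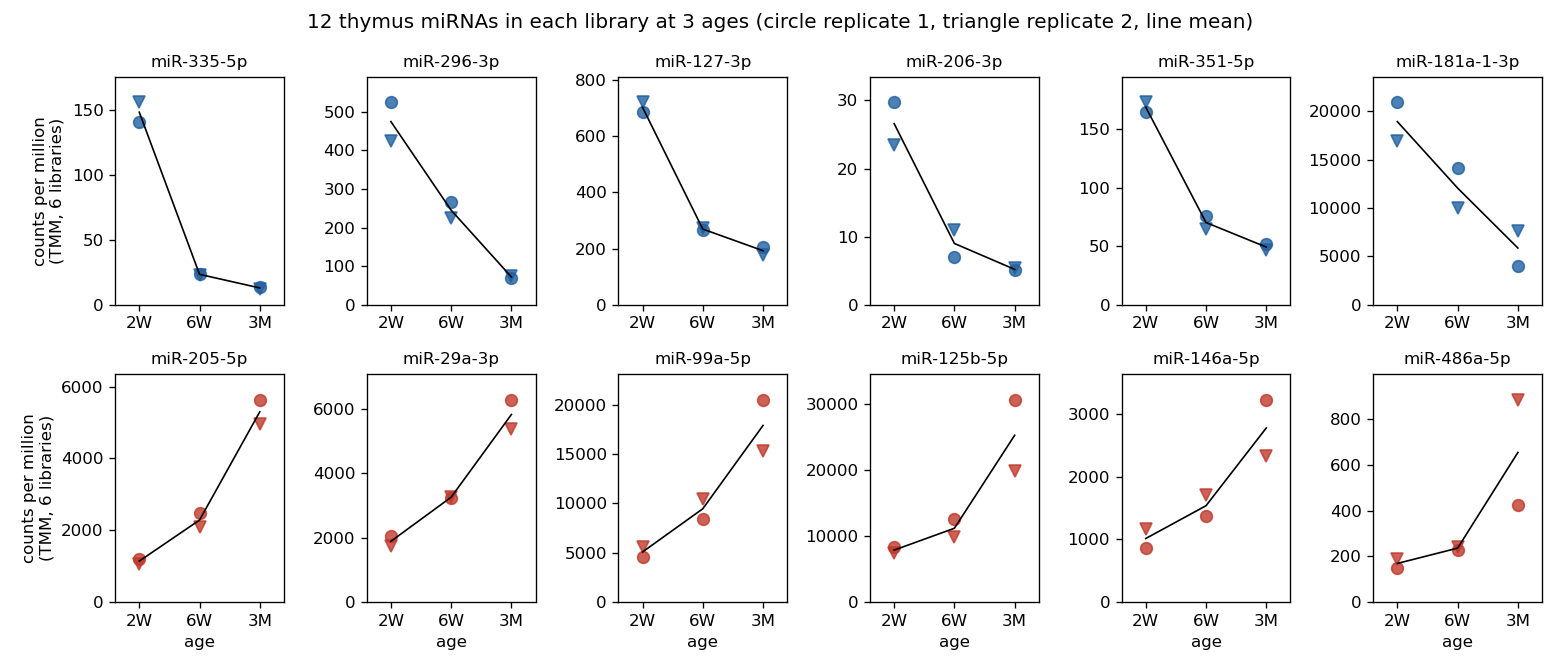
CPM on the scale of all 6 libraries (y axis, from 0) of 12 called miRNAs at 2W, 6W and 3M (x axis), with a circle for replicate 1, a triangle for replicate 2 and a line through the mean. The upper row (blue) fell and the lower row (red) rose; miR-335-5p stood near its 3M level by 6W, at 24.1 and 22.9 CPM, whereas miR-296-3p was well between the other ages, at 266 and 224 CPM.

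**Figure D4:**
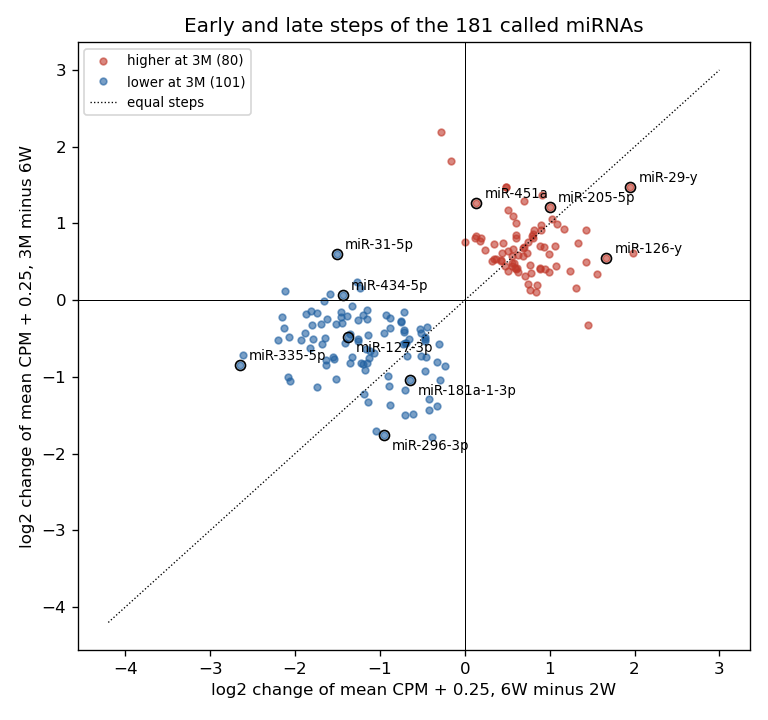
Log2 change of the mean CPM (with 0.25 added) from 2W to 6W (x axis) and from 6W to 3M (y axis) of the 181 called miRNAs, red for those higher and blue for those lower at 3M. Points on the dotted line have equal steps; miR-335-5p made its larger step before 6W and miR-451a and miR-296-3p after it.

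Many rows without a mouse prefix matched a mouse miRNA except at the 3′ end. Of the tested rows 170 shared 18 or more leading bases with a mouse-named miRNA and then differed, usually by bases added or exchanged at the end. The sequences below pair such variants with their miRNAs, with the bases that are not shared in capitals, because several of them rose far more than the miRNA itself.
mmu-miR-126a-3p: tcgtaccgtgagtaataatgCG
miR-126-y: tcgtaccgtgagtaataatgAA
mmu-miR-29a-3p: tagcaccatctgaaatcggTTA
miR-29-y: tagcaccatctgaaatcggAA
mmu-miR-10b-5p: taccctgtagaaccgaatttgtG
miR-10-x: taccctgtagaaccgaatttgtAA
mmu-miR-16-5p: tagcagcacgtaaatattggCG
miR-16-x: tagcagcacgtaaatattggAA
miR-125-x: tccctgagaccctaacttgtgaAA
miR-99-x: aacccgtagatccgatcttgtgAA
Each of these variants ends in AA. MiR-125-x and miR-99-x carry the bases AA after the full miR-125b-5p and miR-99a-5p shown above.

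MiR-126-y was at 27.6 and 22.9 CPM at 2W and at 101 and 135 CPM at 3M (log2 fold change 2.22 ± 0.28, edgeR adjusted p = 0.0045). Its miRNA, miR-126a-3p of the endothelium, was at 2974 and 2786 CPM and then at 2739 and 3064 CPM (log2 fold change 0.01, edgeR adjusted p = 0.97). The variant was therefore 0.927% and 0.821% of the counts of miR-126a-3p at 2W, 3.65% and 2.78% at 6W and 3.68% and 4.39% at 3M. MiR-29-y, the variant of miR-29a-3p, had the highest fold among the best supported risers, at 9.95 and 6.34 CPM against 94.2 and 86.6 CPM (log2 fold change 3.47 ± 0.31, edgeR adjusted p = 0.0031). As a share of miR-29a-3p it was 0.488% and 0.363% at 2W, 1% and 0.968% at 6W and 1.49% and 1.61% at 3M. MiR-10-x was 0.0907% and 0.121% of miR-10b-5p at 2W and 0.399% and 0.281% at 3M.

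This was not the rule for all such rows. Over the 170 variants the share of the miRNA was higher at 3M in 61 (35.9%) and lower in 32 (18.8%) with the groups not overlapping, and the median log2 change of the share was 0.13. Of the 45 that end in AA it was higher in 21 and lower in 5, with a median of 0.298. Of the 45 that end in TT it was higher in 20 and lower in 8, with a median of 0.221. Of the 80 with other ends it was higher in 20 and lower in 19, with a median of 0.0283. Exceptions were found among both kinds. MiR-205-x, which is miR-205-5p with AA at the end, was at 7.45% and 7.68% of its miRNA at 2W and at 4.91% and 5.23% at 3M. MiR-181-x, which is miR-181a-5p with TTT at the end, was at 1.35% and 1.70% and then at 0.813% and 0.875%. MiR-125-x was not an exception, since its share went from 1.09% and 0.947% to 1.29% and 1.46%. It rose by 2.09 on the log2 scale and miR-125b-5p itself by 1.69. Whether the added bases were made in the tissue or in the preparation of the libraries was not tested.

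**Figure D5:**
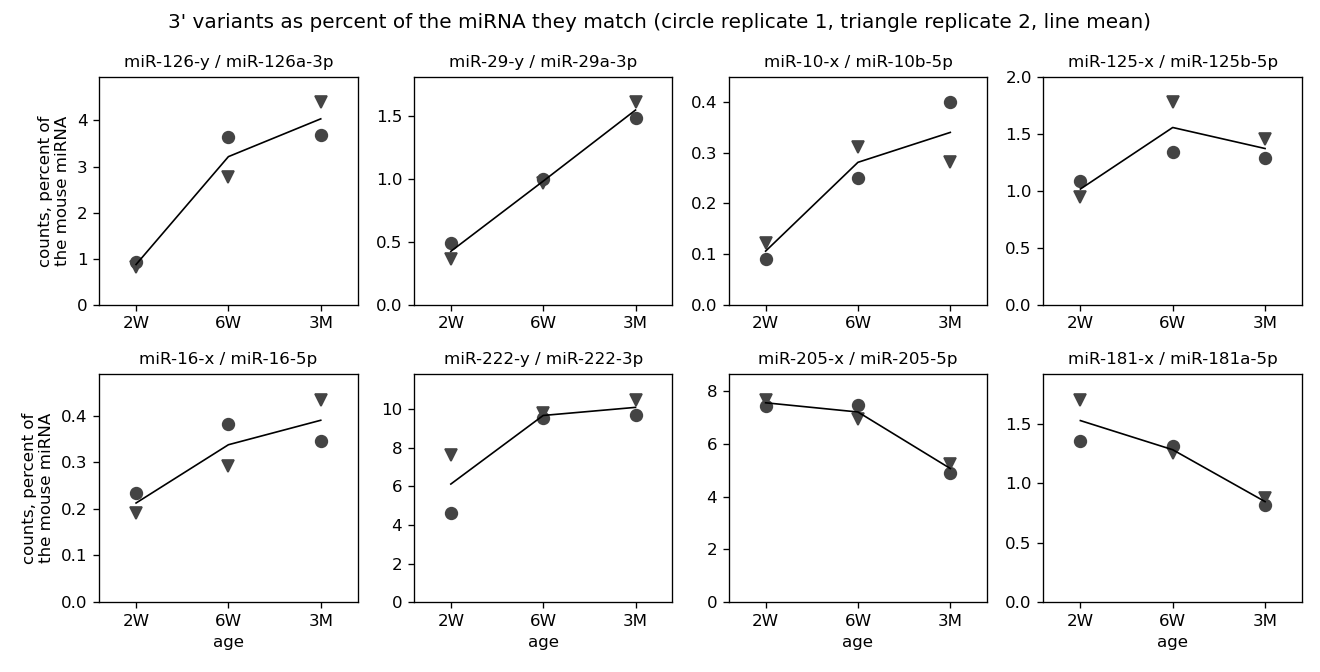
Counts of 8 variants with another 3′ end as a percentage of the counts of the miRNA they match (y axis, from 0) at 2W, 6W and 3M (x axis), with a circle for replicate 1, a triangle for replicate 2 and a line through the mean. The shares of miR-126-y, miR-29-y, miR-10-x, miR-125-x, miR-16-x and miR-222-y were higher in both 3M libraries than in both 2W libraries, and those of miR-205-x and miR-181-x were lower.

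Genes next to or around these miRNAs, and cell type markers, were looked up in the long RNA libraries of the same ages, which share age and replicate labels with the small RNA libraries but are not stated to come from the same animals. Of 62 listed genes 47 were tested and 9 were called, 7 higher and 2 lower. Of the 9, 7 were among the 33 tested cell type markers, and 2 were among the 14 tested hosts and neighbours, Mrc1 (host of miR-511) higher and Igf2 lower, where 3.84% of all genes were called higher and 0.781% lower. The number called over all genes, 663, was 336 and 364 without 2W replicate 1 and 2, and 2287 and 1922 without 3M replicate 1 and 2. Mest, the host of miR-335, was at 1.55 and 3.38 CPM at 2W and at 0.888 and 0.855 CPM at 3M (log2 fold change -1.49, edgeR adjusted p = 0.16). Igf2, a fetal growth factor that is imprinted and hosts miR-483, was at 6.63 and 9.35 CPM and then at 1.84 and 1.22 CPM (log2 fold change -2.39 ± 0.36, edgeR adjusted p = 0.029). Dlk1, the protein-coding gene of the chromosome 12 region, was at 1.42 and 1.11 CPM and then at 0.296 and 0.585 CPM (log2 fold change -1.48, edgeR adjusted p = 0.19). Gnas, beside miR-296 and miR-298, did not follow them: it was at 444 and 418 CPM at 2W and at 390.0 and 415 CPM at 3M (log2 fold change -0.10, edgeR adjusted p = 0.74). Sfmbt2, whose intron holds the cluster without a call, had a log2 fold change of 0.08, and Egfl7, the host of miR-126a, had one of -0.29, and neither passed.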

How the data were processed

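Total RNA was extracted with TRIzol; small RNAs were size-selected on a gel and sequenced, and long RNA was sequenced from strand-specific, rRNA-depleted libraries. The authors deposited a table of miRNA counts and TPM, the latter scaled to library totals of which the table holds 90.6% to 92.3%, and a gene table with estimated counts. The authors also deposited FPKM values for genes, which were not used here. The deposited estimated counts were summed by gene symbol and rounded. The submitters' processing notes list Bowtie 0.12.2 and mm8, with no role given. The long non-coding and circular RNA tables were not used here, so the host genes Meg3, Rian, Mirg and H19 are not analysed here.

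Counts of the 4 libraries at 2W and 3M were tested with edgeR 4.0.16 (R 4.3.3) by the quasi-likelihood F test with TMM scaling, after its filter by expression, and p-values were adjusted over all tested features. CPM are on that scale unless said to be of 6 libraries. SE is the log2 fold change divided by the root of F. With 2 libraries per age, an exact permutation test cannot go below p = 0.333, so a value rests on the fit across all miRNAs, and p-values measure the spread between these libraries. Precision is limited for rare miRNAs, and a floor of 3 counts per library bounded folds against an age with 3 or fewer counts in each library. The alternatives tried are in the closing section, DESeq2 1.42.0 among them. Sequences and positions come from RefSeq tables (GRCm38.p6), in which 809 of the 976 mouse names had the same sequence; 78 rows share a sequence with another. MiRNAs were named by rule: the 8 smallest p-values in each direction among calls beyond a log2 fold change of 1 without overlap, the 8 most abundant, up to 4 called members per list and the 4 smallest p-values of steady miRNAs in each direction. Others, such as relatives by seed and variants, were chosen after their values were seen. The members, lists and tests were chosen with earlier results of these data known.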

Additional observations from a re-analysis of the deposited data

How the results depend on the processing

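Of the 181 called miRNAs, 159 were also called by DESeq2 1.42.0 and 180 in a fit of all 6 libraries. Named miRNAs kept their sign in every alternative in which either fit called them. With the replicate number as a block 55 miRNAs were called, 34 of them list members (90 without the block). With the numbers crossed, an alternative chosen after seeing the data, 137 miRNAs and 73 list members were called. The numbers mark no shared animal, and no label says what else they mark. For miRNAs the deviations of same-numbered libraries correlated at -0.206 between 2W and 3M, 0.302 between 2W and 6W and -0.084 between 6W and 3M. Whether same-numbered libraries shared handling was not tested, nor was the reason why calls were lost under the block. Leaving out a library gave 37 to 195 calls, 28 to 79 list members and 185 to 225 miRNAs at the study's threshold, the lowest without a 2W library; the lone library was then assumed to vary like the other age, and the cause was not tested. Mouse names alone gave 137 at the study's threshold, since fewer were tested. Of the listed genes 15 were called with DESeq2, 15 with all 6 libraries, 19 with crossed numbers and 7 to 20 when a library was left out (20 without 3M replicate 1, 16 without 3M replicate 2). The log2 fold change of Hba-a1 ran from -0.71 without 3M replicate 2, where it reversed, to 1.67 without 3M replicate 1. Over all genes DESeq2 called 1350, 951 of them higher, against 663 and 551, all 6 libraries in the fit called 1629, the block 357, the crossed numbers 2756 and fits without 1 library 336 to 2287. The steady count was 170 with total counts, 171 with TPM and 220 with steps of 0.25 on the log2 scale. Rare miRNAs near the filter have few counts, and their folds are the least certain.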

Other observations

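Of the tested rows without a close mouse counterpart, 19 end in CCA, the ending of mature transfer RNA. Their summed level, on the scale of all 6 libraries, was 7957 and 4875 CPM at 2W, 3647 and 3143 CPM at 6W and 2534 and 3801 CPM at 3M. None was called by edgeR, 8 had an unadjusted p under 0.05 and DESeq2 called 6. Of the 19, 18 had a negative log2 fold change, where 443 of all 810 tested miRNAs did. Their sum stood highest in 2W replicate 1.

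MiR-128-3p, listed with the neural miRNAs but abundant here, was at 24659 and 21294 CPM at 2W and at 10383 and 15146 CPM at 3M (log2 fold change -0.85, edgeR adjusted p = 0.055). Chga, the endocrine gene chromogranin A, was at 2.85 and 1.41 CPM at 2W and at 7.11 and 24.1 CPM at 3M, with a log2 fold change of 2.87 (edgeR adjusted p = 0.061).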
